A study of Rattus norvegicus with 9 samples.

Results

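Macrophage and phagocyte genes were described in rat prostates as a list of 40 genes, chosen by symbol for their known use in macrophages, monocytes and related phagocytes. A gene was represented by an array probe whose RefSeq accession maps to its symbol, and genes without a probe or at background were left out of the comparisons. Of the 40 genes, 39 had a matched probe, among 15163 gene symbols on the array, and Itgax had none. The probe of Itgam was well above background on 0 of 9 arrays, and the other 38 genes were well above background on at least 3 of 9 arrays.

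Prostates of male Sprague Dawley rats, bought at 6 weeks of age, had been taken from 3 groups with 3 arrays each. Sham rats underwent a sham operation and received subcutaneous corn oil and oral distilled water. BPH rats (benign prostatic hyperplasia, BPH) were castrated and received subcutaneous dihydrotestosterone over 4 weeks and oral distilled water. BPH+ghrelin rats underwent the same castration and dihydrotestosterone injections, and received oral rat ghrelin, a hormone of food intake, during the last 2 weeks. Thus, castration and dihydrotestosterone were shared by BPH and BPH+ghrelin rats, and BPH differed from sham by both at once. The methods give 3 rats per group for the arrays, and each array was taken as 1 rat. The arrays hold whole prostate tissue, in which fewer cells of a type and less RNA per cell cannot be told apart.

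Macrophages are resident phagocytes of most tissues, including the prostate stroma, and take up dead cells, microbes and immune complexes. They recognise their targets by scavenger, lectin, Toll-like and Fc receptors, pass signals from several of these through adaptor proteins with ITAM motifs, and degrade what they have engulfed in lysosomes. The phagocyte NADPH oxidase, a complex of membrane and cytosolic subunits, forms superoxide at the membrane of the phagosome.

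The check of the tissue against macrophage markers included Cd68, Csf1r, Adgre1, Cd163, Mrc1, Aif1, Cd14 and Itgam. Of these 8 markers, 7 were well above background on all 9 arrays, and Itgam was not. The lowest 75th percentile of the raw signal was 327, on sham replicate 2, the highest was 1065, on BPH replicate 1, and 61.4% of the probes were well above background on sham replicate 2, compared to 69.5% to 75.05% on the other 8 arrays. Slides were inferred from the scan date of each array, and arrays with the same scan date were taken as 1 slide. By this rule, the first slide held all BPH arrays and BPH+ghrelin replicate 1. The second held the other BPH+ghrelin arrays together with sham replicates 1 and 2, and the third held sham replicate 3. Slide and group cannot be told apart in BPH against sham, as these groups shared no slide. The values of sham replicate 3 (72.8%), BPH replicate 2 (70.9%) and BPH+ghrelin replicate 2 (68.6%) were intermediate within their groups for most of 20113 genes. This applied to 9.99% to 17.7% of genes for the other arrays. Whether the arrays of a group are independent was not tested, and the p values below assume that they are.

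Promoters are shown for 2 of the 5 members that fell in BPH+ghrelin against BPH, Cybb and Mrc1, as these fell together and their windows lie outside the annotated gene. The sequences are the 200 bases before the start of the transcript used in the RefSeq promoter table of GRCr8, 5′ to 3′ on the strand of the gene, at chrX:16065066-16065265 (minus strand) and chr17:82157525-82157724 (plus strand). Capitals mark GAGGAA on either strand (TTCCTC when read from the other strand), the core bound by PU.1, the transcription factor of myeloid cells encoded by Spi1.
Cybb: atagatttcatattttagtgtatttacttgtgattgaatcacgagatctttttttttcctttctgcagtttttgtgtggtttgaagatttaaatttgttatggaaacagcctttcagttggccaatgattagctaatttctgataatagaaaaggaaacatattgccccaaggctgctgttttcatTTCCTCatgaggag
Mrc1: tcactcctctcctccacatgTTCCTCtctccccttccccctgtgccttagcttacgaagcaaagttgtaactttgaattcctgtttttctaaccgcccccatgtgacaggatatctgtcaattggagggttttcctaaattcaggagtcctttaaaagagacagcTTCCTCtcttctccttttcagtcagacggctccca
Windows of this kind were found in the table for 28 of the 40 members. In 20 of these 28 (71.4%, compared to 30.7% of all windows), the window reached into the annotated bounds of its own gene, as the gene has a start further upstream, and such windows are not the first promoter of the gene. GAGGAA was found on either strand in 17 of the 28 windows (60.7%) and in 18.9% of all 27457 windows of the same length. Among windows outside the gene, it was found in 6 of 8 for members and in 18.9% of all 19036. The last base of the match nearest to the start of the transcript was 9 bases before it in Cybb and 30 in Mrc1. TGACTCA, the site of AP-1, was found on either strand in 3 of the 28 windows (10.7%), and in 3.13% of all windows. These 3 were Cd68, Itgax and Gpnmb, and the window of Itgax lies inside the gene. A match is given as a description of the letters in this window only.

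Most members had lower means in BPH+ghrelin than in BPH. Of 37 members tested, 31 had a negative and 6 a positive log2 difference, with a median of -0.36, compared to a median of 0.015 and a negative difference in 48.3% of all 19749 genes tested. At an adjusted p under 0.05 (limma, adjusted over all genes tested), 5 members fell, which were Cybb (gp91phox, the catalytic subunit of the phagocyte oxidase), Ctss (cathepsin S, a lysosomal protease), Msr1 (a class A scavenger receptor), Mrc1 (the mannose receptor) and Ptprc (CD45, the tyrosine phosphatase of all leukocytes). These were 5 of 37 members, compared to 0.987% of all genes. Msr1 and Clec7a entered this comparison through the BPH arrays, on which they are high, and both are included in the counts of this paragraph that they meet. With a filter on all 6 arrays, Msr1 was not tested, and the other 4 were called among 33 members. Conversely, 0 members rose, compared to 0.496% of all genes. At an unadjusted p under 0.05, 15 members were lower (10.5% of all genes) and 0 were higher (10.7% of all genes). All 3 BPH+ghrelin arrays were below all 3 BPH arrays for 19 members (19.3% of all genes), and the opposite applied to 1 member, S100a9 (19.8% of all genes). By the fold of the measured means alone, Cybb and Mrc1 were at least 2-fold lower, as were Msr1 and Clec7a (4 members, compared to 3.21% of all genes). In BPH+ghrelin, the probe of Msr1 exceeded background clearly on 1 of 3 arrays, so that the size of its fold is uncertain. That of Clec7a did so on 0 of 3, so that only a bound of at least 1.50-fold holds for it in the main processing. At least 2-fold higher were 0 members (2.90% of all genes).

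Members differed in both directions between BPH and sham. Of 37 members tested, 17 had a positive and 20 a negative difference, with a median of -0.097, compared to 0.039 in all 19552 genes tested. At an adjusted p under 0.05, 3 members rose, which were Cybb, Adgre1 (F4/80, an adhesion receptor of rodent macrophages) and Hmox1 (heme oxygenase 1, which degrades heme in macrophages and other cells), compared to 2.16% of all genes. In limma, 0 members fell at an adjusted p under 0.05 (2.18% of all genes), and 4 were lower at an unadjusted p under 0.05 (12.0% of all genes). The latter were Csf1r, Tlr2, S100a8 and S100a9. At an unadjusted p under 0.05, 10 members were higher (14.4% of all genes). All BPH arrays were above all sham arrays for 10 members (17.1% of all genes) and below them for 4 members (14.2% of all genes). Msr1 and Clec7a entered this comparison through the BPH arrays, on which they are high, and both are among the 10 members of either count. With a filter on all 6 arrays, neither was tested, and 3 of 33 members were called higher. Adgre1 was at least 2-fold higher by the fold of the measured means alone, as was Clec7a (3.53% of all genes). S100a8 and S100a9 were at least 2-fold lower (4.63% of all genes). Clec7a was not well above background on any sham array, and only a bound of at least 1.14-fold holds for it in the main processing.

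Compared to sham, 30 of 36 members tested had a negative and 6 a positive difference in BPH+ghrelin, with a median of -0.44, compared to 0.041 in all 19197 genes tested. Ptprc and Fcgr2b (an inhibitory Fc receptor) fell at an adjusted p under 0.05 (3.30% of all genes), and Tlr4 (the receptor of bacterial lipopolysaccharide) rose (2.99% of all genes). At an unadjusted p under 0.05, 17 members were lower (10.2% of all genes) and 1 was higher (13.5% of all genes). All BPH+ghrelin arrays were below all sham arrays for 19 members (12.8% of all genes) and above them for 1 member (17.5% of all genes). Fcgr2b, S100a8 and S100a9 were at least 2-fold lower by fold alone (4.20% of all genes), and 0 members were at least 2-fold higher (3.21% of all genes). The comparisons share arrays of their groups, and their values are therefore not independent of each other.

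**Figure D1:**
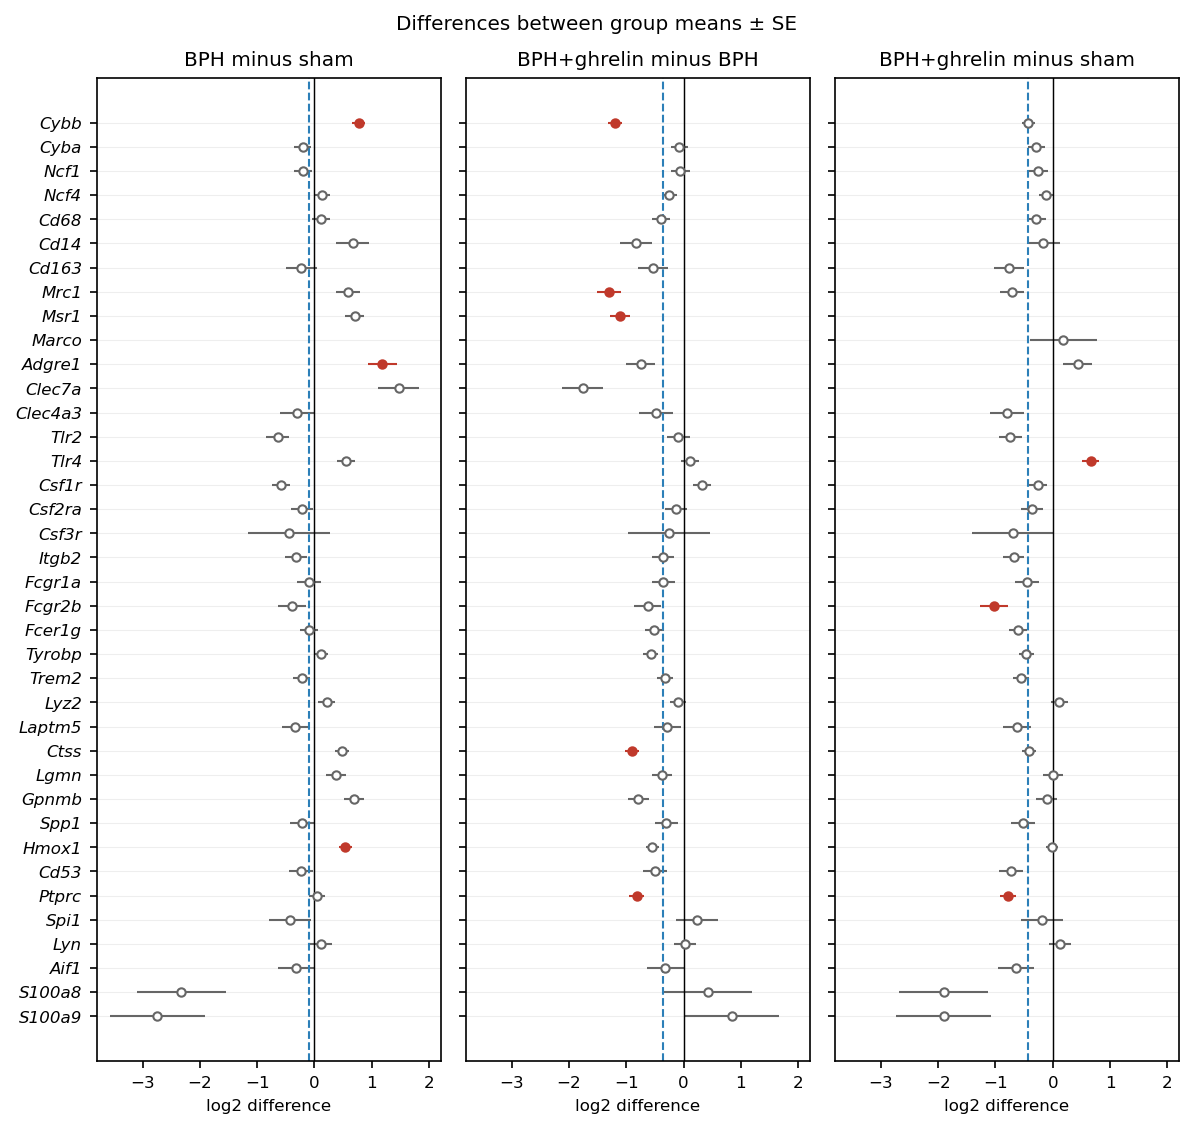
Log2 differences between group means (points) with standard errors (bars) for each member tested, in BPH minus sham, BPH+ghrelin minus BPH and BPH+ghrelin minus sham. Filled red points have an adjusted p under 0.05 (limma), the solid line is 0, and the dashed line is the median of the members (-0.097, -0.36 and -0.44).

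Calls of members changed with single arrays and with the slide term, as did those over all genes. Between BPH+ghrelin and BPH, 0 members were called without BPH replicate 1, without BPH replicate 2 or without BPH+ghrelin replicate 2, Cybb alone was called without BPH+ghrelin replicate 1 or 3, and 6 members without BPH replicate 3. In the fits without BPH replicate 1, BPH replicate 2 or BPH+ghrelin replicate 2, calls over all 19749 genes were 9, 3 and 7, compared to 293 with all arrays. With slide as a fixed block, 0 members and 2 of 19749 genes were called, where BPH+ghrelin replicate 1 is the only array of its group that shares a slide with BPH arrays. Within that slide, BPH+ghrelin replicate 1 was below the mean of the 3 BPH arrays for 29 of 37 members, with a median difference of -0.46, and differences were -1.09 for Cybb, -1.36 for Mrc1, -1.11 for Msr1, -0.93 for Ctss and -0.91 for Ptprc. Within the slide shared with sham, BPH+ghrelin replicates 2 and 3 were below sham replicates 1 and 2 for 31 of 36 members in their means, with a median difference of -0.44. In BPH against sham, 0 members were called higher without sham replicate 3 or BPH replicate 2, Cybb alone without BPH replicate 1 or 3, and the median of the members was 0.051 without sham replicate 2. Between BPH+ghrelin and sham, 0 members were called without sham replicate 3 or BPH+ghrelin replicate 1 or 2, Ptprc alone without BPH+ghrelin replicate 3, and 9 members fell without sham replicate 1. Of all 19197 genes, 874 fell without sham replicate 1, compared to 633 with all arrays. Calls over all genes were 259 without sham replicate 3, and 407, 226 and 550 without BPH+ghrelin replicate 1, 2 and 3, compared to 1207 with all arrays. Without sham replicate 2, Adgre1 and Tlr4 were called higher in that comparison, as were 887 of all genes, compared to 574 with all arrays. Over all genes, BPH against sham had 159 calls without sham replicate 3 and 119 without BPH replicate 2, compared to 849 with all arrays. Without BPH replicate 1 and 3, it had 583 and 252. Without the 3 arrays that lie between the others of their group, 0 members were called in each of the 3 comparisons, and 0 to 3 of all genes.

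**Figure D2:**
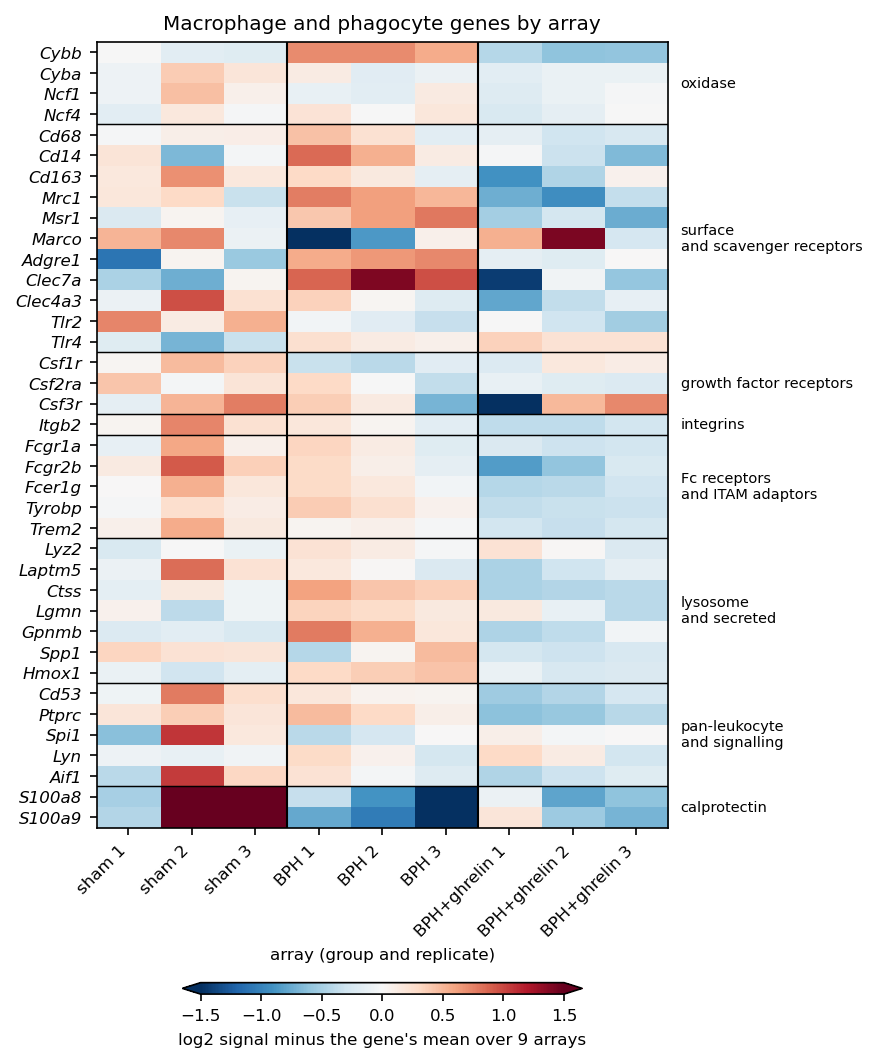
Log2 signal of each of 38 members on each of 9 arrays, minus the mean of the gene over all arrays, in the order of their roles. Blue is below and red above the mean, colours end at a deviation of 1.5, and most rows are blue on the 3 BPH+ghrelin arrays, while S100a8 and S100a9 are dark red on sham replicates 2 and 3.

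Among the 4 members of the phagocyte oxidase, Cybb rose in BPH and fell with ghrelin. The log2 signal of Cybb was 5.79, 5.65 and 5.62 on the sham arrays, 6.51, 6.52 and 6.35 on the BPH arrays, and 5.37, 5.20 and 5.21 on the BPH+ghrelin arrays. The 3 groups did not overlap, with all BPH arrays highest and all BPH+ghrelin arrays lowest. Means ± SD were 5.69 ± 0.091 in sham, 6.46 ± 0.091 in BPH and 5.26 ± 0.095 in BPH+ghrelin (n = 3 each). Thus, Cybb was 1.71-fold higher in BPH than in sham (log2 difference 0.77, SE 0.116, adjusted p 0.0142) and 2.29-fold lower in BPH+ghrelin than in BPH (log2 difference -1.20, SE 0.117, adjusted p 0.0112). Its difference between BPH+ghrelin and sham was -0.42 (adjusted p 0.0700). With normexp background correction, which shrinks differences of dim probes by its offset of 50, Cybb was called in the same 2 comparisons with smaller differences of 0.38 and -0.55. The other 3 oxidase members are Cyba (p22phox, the membrane partner of Cybb) and the cytosolic subunits Ncf1 (p47phox) and Ncf4 (p40phox). Their differences were small, with -0.054 to -0.25 in BPH+ghrelin against BPH and -0.21 to 0.13 in BPH against sham, and adjusted p values of 0.318 or higher in both.

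**Figure D3:**
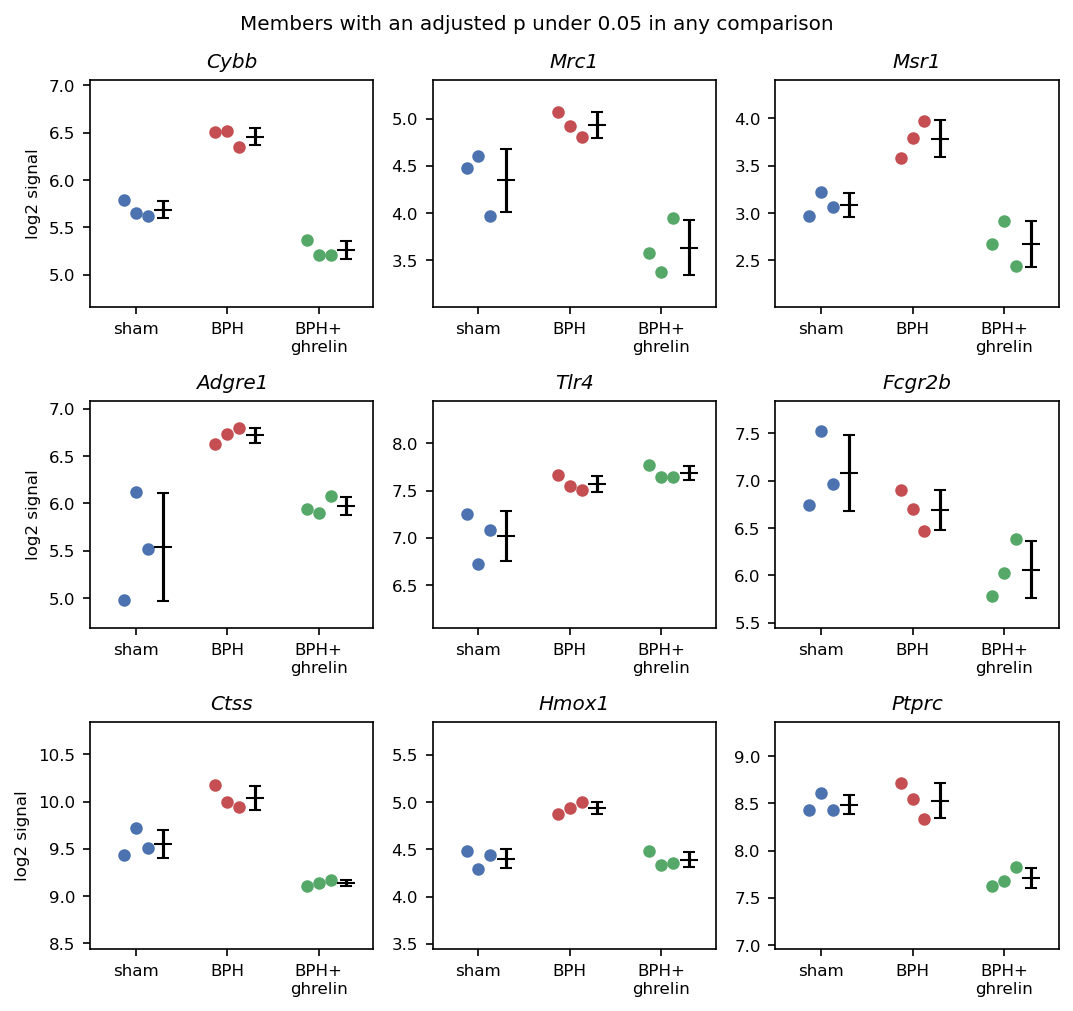
Log2 signal of the 9 members with an adjusted p under 0.05 in any comparison, by group. Coloured points are single arrays in the order of replicates 1 to 3, black bars are means ± SD (n = 3), each panel spans 2.4 log2 units, and the BPH+ghrelin points of Cybb, Ctss and Ptprc lie below all other points.

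Surface and scavenger receptors included 11 members, and 9 of 10 tested had a negative difference in BPH+ghrelin against BPH, with a median of -0.64. Mrc1, which binds mannose-bearing glycoproteins, had log2 signals of 4.48, 4.60 and 3.97 on the sham arrays, 5.07, 4.92 and 4.81 on the BPH arrays and 3.58, 3.38 and 3.95 on the BPH+ghrelin arrays. All BPH arrays were above all others, and the highest BPH+ghrelin array lay just below the lowest sham array. Mrc1 was 2.46-fold lower in BPH+ghrelin than in BPH (log2 difference -1.30, SE 0.211, adjusted p 0.0340), while its difference was 0.58 in BPH against sham (adjusted p 0.136) and -0.72 in BPH+ghrelin against sham (adjusted p 0.0843).

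Msr1, which takes up modified lipoproteins, was a dim probe. Its log2 signal was 2.97, 3.23 and 3.06 on the sham arrays, 3.59, 3.80 and 3.98 on the BPH arrays and 2.67, 2.92 and 2.44 on the BPH+ghrelin arrays. All 3 BPH arrays, 1 of 3 sham arrays and 1 of 3 BPH+ghrelin arrays had it well above background, and the groups did not overlap. Msr1 was 2.16-fold lower in BPH+ghrelin than in BPH (log2 difference -1.11, SE 0.167, adjusted p 0.0279), and its difference in BPH against sham was 0.70 (SE 0.167, adjusted p 0.0558). With normexp, the difference between BPH+ghrelin and BPH was -0.089 for Msr1 and -0.26 for Mrc1, and neither was called. Clec7a (dectin-1, the receptor of fungal beta-glucan) was dimmer still, with log2 signals of 1.74, 1.49 and 2.25 on the sham arrays, 3.09, 3.61 and 3.18 on the BPH arrays and 0.79, 2.16 and 1.64 on the BPH+ghrelin arrays. Its probe exceeded background clearly on 3 of 3 BPH arrays, and on 0 of 3 sham and 0 of 3 BPH+ghrelin arrays. Clec7a was at least 1.14-fold higher in BPH than in sham (adjusted p 0.0571) and at least 1.50-fold lower in BPH+ghrelin than in BPH (adjusted p 0.0561). These bounds were computed against the higher of its own signal and the lowest signal among probes well above background, and apply to the main processing only. With normexp, its difference in BPH against sham was 0.12. Over all settings, its smallest difference in BPH+ghrelin against BPH was -0.15. It was not tested in BPH+ghrelin against sham.

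Adgre1 rose in BPH. Its log2 signal was 4.97, 6.12 and 5.52 on the sham arrays, 6.63, 6.73 and 6.79 on the BPH arrays and 5.94, 5.90 and 6.08 on the BPH+ghrelin arrays. The BPH arrays were above all others, and the BPH+ghrelin arrays lay within the range of the sham arrays, which was wide (SD 0.571, compared to 0.082 in BPH and 0.098 in BPH+ghrelin, n = 3 each). Adgre1 was 2.27-fold higher in BPH than in sham (log2 difference 1.18, SE 0.255, adjusted p 0.0434), and its difference was 0.57 with normexp, where it was called as well. Between BPH+ghrelin and BPH, the difference was -0.75 without overlap of the arrays (SE 0.255, adjusted p 0.160).

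Tlr4 had lower values in sham than in both other groups. Its log2 signal was 7.25, 6.72 and 7.09 on the sham arrays, 7.67, 7.55 and 7.50 on the BPH arrays and 7.77, 7.64 and 7.64 on the BPH+ghrelin arrays. All sham arrays were lowest, and BPH and BPH+ghrelin overlapped. Compared to sham, Tlr4 was 1.58-fold higher in BPH+ghrelin (log2 difference 0.66, SE 0.151, adjusted p 0.0418), and its difference was 0.55 in BPH against sham (adjusted p 0.0770). With scaling to the 75th percentile in place of quantiles, Tlr4 was not called in BPH+ghrelin against sham, and with normexp it was called with a difference of 0.40. Tlr2, the receptor of bacterial lipoproteins, had its 3 highest values on the sham arrays (9.17, 8.56 and 8.97), with differences of -0.65 in BPH (adjusted p 0.0999) and -0.74 in BPH+ghrelin against sham (adjusted p 0.0677).

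Among the other surface receptors, Cd14 (the co-receptor of Tlr4 for lipopolysaccharide) had means of 12.72 ± 0.452 in sham, 13.39 ± 0.365 in BPH and 12.56 ± 0.323 in BPH+ghrelin (n = 3 each). All BPH+ghrelin arrays were below all BPH arrays, with a difference of -0.83 (adjusted p 0.160). Cd68 (a lysosomal and endosomal glycoprotein of macrophages), Cd163 (the receptor of haptoglobin and hemoglobin complexes) and Clec4a3 (a C-type lectin) had differences of -0.40, -0.54 and -0.49 in BPH+ghrelin against BPH, with adjusted p values of 0.215, 0.289 and 0.373, and their arrays overlapped. Cd163 and Clec4a3 were below sham without overlap, with differences of -0.76 and -0.79 (adjusted p 0.128 and 0.146). Marco, a scavenger receptor of some resident macrophages, was well above background on 1 of 3 sham, 0 of 3 BPH and 2 of 3 BPH+ghrelin arrays, and was tested in BPH+ghrelin against sham only (difference 0.19, adjusted p 0.883).

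By their brightest probes, the 5 members among Fc receptors and ITAM adaptors all had BPH+ghrelin arrays as the 3 lowest of 9, without overlap with BPH or sham (4.53% of 20113 genes showed this order). They are Fcgr1a (the high-affinity receptor of immunoglobulin G), Fcgr2b, Fcer1g and Tyrobp (both adaptors with ITAM motifs) and Trem2 (a receptor of lipids that signals through Tyrobp). Their differences ranged from -0.33 to -0.63 in BPH+ghrelin against BPH and from -0.45 to -1.02 in BPH+ghrelin against sham, while they ranged from -0.39 to 0.12 in BPH against sham. Second probes of Fcgr1a, Fcgr2b and Fcer1g were below BPH as well (-0.32, -0.32 and -0.37), but overlapped with sham, with differences of -0.11, -0.23 and -0.38 against it.

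Fcgr2b was the single member of this group with an adjusted p under 0.05. Its log2 signal was 6.74, 7.53 and 6.97 on the sham arrays, 6.90, 6.70 and 6.47 on the BPH arrays and 5.78, 6.02 and 6.38 on the BPH+ghrelin arrays. The lowest BPH array and the highest BPH+ghrelin array were close to each other. Fcgr2b was 2.03-fold lower in BPH+ghrelin than in sham (log2 difference -1.02, SE 0.241, adjusted p 0.0462). A second probe of Fcgr2b showed a difference of -0.23 in the same comparison, so that both probes had the same sign and different sizes. With 1 of the 6 arrays left out, Fcgr2b remained called in 1 fit, without sham replicate 1, and it was not called with the mean of both probes or with normexp (-0.57, adjusted p 0.0516 in limma).

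Trem2 had log2 signals of 7.71, 8.18 and 7.77 on the sham arrays, 7.67, 7.70 and 7.62 on the BPH arrays and 7.35, 7.29 and 7.37 on the BPH+ghrelin arrays. The 3 groups did not overlap, with sham highest. The differences were -0.33 in BPH+ghrelin against BPH (adjusted p 0.240) and -0.55 in BPH+ghrelin against sham (SE 0.143, adjusted p 0.0607). Fcer1g had log2 signals of 9.79, 10.31 and 9.95 on the sham arrays, 10.07, 9.95 and 9.75 on the BPH arrays and 9.36, 9.38 and 9.49 on the BPH+ghrelin arrays. Sham and BPH overlapped, and BPH+ghrelin was below both, with differences of -0.51 against BPH (adjusted p 0.141) and -0.61 against sham (SE 0.161, adjusted p 0.0652). Tyrobp showed a narrow range in BPH+ghrelin (9.78, 9.82 and 9.83), below 10.22 to 10.53 in BPH, with a difference of -0.58 (adjusted p 0.0702).

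Growth factor receptors and integrins showed no call in any comparison. Csf1r, the receptor of CSF1 and IL-34 on which most tissue macrophages depend, had log2 signals of 6.50, 6.94 and 6.81 on the sham arrays, 6.14, 6.07 and 6.30 on the BPH arrays and 6.26, 6.63 and 6.58 on the BPH+ghrelin arrays. Its difference was -0.58 in BPH against sham, without overlap (adjusted p 0.0796), and 0.32 in BPH+ghrelin against BPH, with overlap (adjusted p 0.300). A second probe of Csf1r had differences of -0.67 and 0.51, with the same signs. Csf1r thus had the opposite signs to Cybb, Mrc1, Msr1, Adgre1 and Ctss in both comparisons. Csf2ra (the alpha subunit of the GM-CSF receptor) had differences of -0.22 and -0.14 in these comparisons, and Csf3r (the G-CSF receptor of granulocytes) was well above background on 5 of 9 arrays, with an SD of 1.59 in BPH+ghrelin. Itgb2, the common beta subunit of leukocyte integrins, was lowest on all 3 BPH+ghrelin arrays (6.66, 6.66 and 6.77), with differences of -0.36 against BPH (adjusted p 0.307) and -0.68 against sham (adjusted p 0.0715).

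Among 7 lysosomal and secreted members, all had a negative difference in BPH+ghrelin against BPH, and Ctss fell. The log2 signal of Ctss was 9.43, 9.72 and 9.51 on the sham arrays, 10.18, 9.99 and 9.94 on the BPH arrays and 9.10, 9.14 and 9.17 on the BPH+ghrelin arrays. The groups did not overlap, and the SD was 0.146 in sham, 0.126 in BPH and 0.033 in BPH+ghrelin (n = 3 each). Ctss, which processes the invariant chain of MHC class II, was 1.87-fold lower in BPH+ghrelin than in BPH (log2 difference -0.90, SE 0.125, adjusted p 0.0240). Its difference was 0.48 in BPH against sham (adjusted p 0.0676) and -0.42 in BPH+ghrelin against sham (adjusted p 0.0879).

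Hmox1 rose in BPH. Its log2 signal was 4.48, 4.29 and 4.44 on the sham arrays, 4.87, 4.94 and 5.00 on the BPH arrays and 4.48, 4.33 and 4.36 on the BPH+ghrelin arrays. All BPH arrays were highest, and sham and BPH+ghrelin overlapped almost completely, with means of 4.40 ± 0.100 and 4.39 ± 0.077 (n = 3 each). Hmox1 was 1.45-fold higher in BPH than in sham (log2 difference 0.54, SE 0.112, adjusted p 0.0401), and its difference between BPH+ghrelin and BPH was -0.55 (SE 0.113, adjusted p 0.0579). In BPH against sham, it was not called with scaling to the 75th percentile (0.41), with normexp (0.13), without BPH replicate 1, 2 or 3, or without sham replicate 3.

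Gpnmb, a glycoprotein of lysosomes in lipid-laden macrophages, had means of 7.42 ± 0.040 in sham, 8.11 ± 0.306 in BPH and 7.31 ± 0.223 in BPH+ghrelin (n = 3 each). All BPH arrays were above all others, with differences of 0.69 against sham (adjusted p 0.0705) and -0.79 in BPH+ghrelin against BPH (adjusted p 0.0738). Lgmn, the lysosomal protease legumain, showed a similar order with smaller differences of 0.38 and -0.38. Lyz2 (lysozyme), Laptm5 (a lysosomal membrane protein of leukocytes) and Spp1 (the secreted protein osteopontin) had differences of -0.097, -0.29 and -0.30 in BPH+ghrelin against BPH, with overlapping arrays. Laptm5 and Spp1 were below sham in BPH+ghrelin without overlap, with differences of -0.62 and -0.52 (adjusted p 0.156 and 0.180).

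Among leukocyte and signalling members, Ptprc fell with ghrelin and had similar values in sham and BPH. Its log2 signal was 8.42, 8.61 and 8.43 on the sham arrays, 8.71, 8.54 and 8.33 on the BPH arrays and 7.62, 7.68 and 7.83 on the BPH+ghrelin arrays. BPH+ghrelin was below both other groups without overlap. Ptprc was 1.77-fold lower in BPH+ghrelin than in BPH (log2 difference -0.82, SE 0.137, adjusted p 0.0370) and 1.71-fold lower than in sham (log2 difference -0.78, SE 0.137, adjusted p 0.0190), while its difference in BPH against sham was 0.043 (SE 0.137, adjusted p 0.861). A second probe of Ptprc had differences of -1.44 and -0.85 in BPH+ghrelin against BPH and sham, and of 0.58 in BPH against sham. Cd53, a tetraspanin of leukocytes, had a similar order, with differences of -0.49 against BPH (adjusted p 0.222) and -0.73 against sham (adjusted p 0.0750), both without overlap.

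Spi1 (encoding PU.1) and Lyn (a kinase of the Src family that phosphorylates ITAM motifs) were not lower with ghrelin in their means, with differences of 0.24 and 0.019 in BPH+ghrelin against BPH (adjusted p 0.736 and 0.967). The sham arrays differed widely for Spi1 (4.45, 6.14 and 5.24). Aif1 (Iba1, an actin-binding protein of macrophages) showed a difference of -0.32 in BPH+ghrelin against BPH (adjusted p 0.597), with the widest spread in sham (SD 0.722, n = 3). A second probe of Aif1 had differences of -0.52 against BPH and -0.72 against sham, and its BPH+ghrelin arrays (9.63, 9.68 and 9.85) were below all other arrays.

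S100a8 and S100a9, the subunits of calprotectin, are abundant in neutrophils and monocytes. The log2 signal of S100a8 was 4.06, 7.64 and 6.17 on the sham arrays, 4.21, 3.65 and 3.05 on the BPH arrays and 4.46, 3.76 and 3.94 on the BPH+ghrelin arrays. The log2 signal of S100a9 was 4.00, 7.82 and 6.16 on the sham arrays, 3.68, 3.39 and 2.68 on the BPH arrays and 4.63, 3.90 and 3.75 on the BPH+ghrelin arrays. Sham replicates 2 and 3 were high for both genes, and sham replicate 1 was in the range of the other groups. The differences in BPH against sham were -2.32 for S100a8 (SE 0.782, adjusted p 0.119) and -2.75 for S100a9 (SE 0.827, adjusted p 0.0944), and both were called without sham replicate 1. Of 13 neutrophil genes, which include both, 8 were above background, and Mpo, Ngp, Mmp8, Prtn3 and Ltf were not. The median deviation of the neutrophil genes from their means over 9 arrays was 1.30 on sham replicate 2 and 0.70 on sham replicate 3, and -0.49 to -0.008 on the other 7 arrays. Sham replicate 2 was also the array with the lowest raw signal, and the part of either in these values was not tested.

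By the order of their brightest probes over 9 arrays, 17 of 38 members showed at least 1 of 2 patterns, given as a description, and 21 showed neither. For 9 of 38 members, all BPH arrays were above all other arrays (23.7%, compared to 8.16% of 20113 genes), and these were Cybb, Mrc1, Msr1, Adgre1, Clec7a, Ctss, Lgmn, Gpnmb and Hmox1. Clec7a and Msr1 passed the filter through the BPH arrays, on which they are high, so that their place in this pattern is partly set by the filter. For 12 of 38 members, all BPH+ghrelin arrays were below all other arrays (31.6%, compared to 4.53% of genes). Both applied to Cybb, Mrc1, Msr1 and Ctss, and the remaining 8 of the second pattern were the 5 Fc receptor and adaptor members, Itgb2, Cd53 and Ptprc, of which second probes of Fcgr1a, Fcgr2b and Fcer1g did not show it. The sham arrays were above all others for Tlr2 and Trem2 (5.26%, compared to 5.55% of genes) and below all others for Tlr4 (2.63%, compared to 6.64% of genes).

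A wider list of 96 phagocyte genes that are no members included complement, cathepsins, Src family kinases, chemokine receptors and transcription factors, and 76 of them were above background. Between BPH+ghrelin and BPH, 52 of 76 had a negative difference (median -0.29), and 4 fell (0.987% of all genes) and 0 rose (0.496% of all genes) at an adjusted p under 0.05. Alox5ap, the activator of 5-lipoxygenase in leukotriene synthesis, fell by 1.10 on the log2 scale (adjusted p 0.0240). C1qa, a chain of complement C1q made by macrophages, fell by 0.80 (adjusted p 0.0491), and Ctsh (cathepsin H) fell by 0.61 (adjusted p 0.0392).

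In BPH against sham, 48 of 74 genes of the wider list had a positive difference (median 0.16), and 1 rose (2.16% of all genes) and 1 fell (2.18% of all genes), so that the list had no larger share of calls than all genes. Maf, a transcription factor of macrophages and other cells, rose by 0.72 (adjusted p 0.0448), and Fgr, a Src family kinase of myeloid cells, fell by 1.52 on the log2 scale (adjusted p 0.00318). The log2 signal of Fgr was 7.34, 7.68 and 7.41 on the sham arrays, 6.06, 6.05 and 5.76 on the BPH arrays and 6.15, 6.08 and 5.84 on the BPH+ghrelin arrays. Fgr was thus lower in both castrated groups, which overlapped with each other. Between BPH+ghrelin and sham, 48 of 74 had a negative difference (median -0.24), and 4 fell (3.30% of all genes) and 1 rose (2.99% of all genes). Maf rose by 0.95 (adjusted p 0.0155), and the 4 that fell included Fcgr3a (-1.53, adjusted p 0.0411), Fgr (-1.45, adjusted p 0.00250) and Coro1a.

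Markers of other cell types are given by the sign and the median of their differences. Negative differences in BPH+ghrelin against BPH were found for 9 of 9 smooth muscle genes (median -0.55), 7 of 8 fibroblast genes (-0.57), 5 of 6 endothelial genes (-0.29), 5 of 5 adipocyte genes (-1.16), 11 of 13 lymphocyte genes (-0.22), 6 of 9 genes of the secretory epithelium (-0.21) and 9 of 10 common leukocyte genes, of which Ptprc, Cd53 and Laptm5 are also members (-0.44). Positive differences applied to 6 of 7 mast cell genes (0.68). Negative differences applied to 3 of 5 dendritic cell genes (-0.56), 5 of 8 neutrophil genes (-0.21), 4 of 5 genes of seminal vesicle and coagulating gland (-0.54), 2 of 4 basal epithelial genes (-0.043) and 1 of 4 erythroid genes (0.19). In BPH against sham, positive differences were found for 8 of 8 fibroblast genes (0.36), 5 of 5 adipocyte genes (1.09), 4 of 4 erythroid genes (0.45), 7 of 9 smooth muscle genes (0.19) and 3 of 4 basal epithelial genes (0.51). Negative differences were found for 10 of 14 lymphocyte genes (-0.18), 6 of 7 mast cell genes (-0.28), 5 of 7 neutrophil genes (-0.60), 3 of 5 dendritic cell genes (-0.17), 4 of 7 endothelial genes (-0.24), 5 of 9 genes of the secretory epithelium (-0.21), 5 of 10 common leukocyte genes (-0.11) and 3 of 5 genes of seminal vesicle and coagulating gland (-4.27), of which 2 fell.

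In BPH+ghrelin against sham, where the median of the members was -0.44, negative differences were found for 9 of 9 smooth muscle genes (-0.37), 4 of 5 endothelial genes (-0.62), 11 of 13 lymphocyte genes (-0.44), 9 of 10 common leukocyte genes (-0.61), 5 of 6 neutrophil genes (-0.996), 4 of 5 dendritic cell genes (-0.29), 7 of 9 genes of the secretory epithelium (-0.24), 3 of 5 genes of seminal vesicle and coagulating gland (-4.80) and 2 of 4 basal epithelial genes (median 0.066). Positive differences applied to 7 of 7 mast cell genes (0.40), 4 of 4 erythroid genes (0.78), 5 of 8 fibroblast genes (0.15) and 3 of 5 adipocyte genes (0.25).

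The adipocyte genes differed between arrays of a group. Their median deviation from the mean over 9 arrays was -2.61, 1.04 and -0.15 on the sham arrays, 1.29, 0.83 and 0.12 on the BPH arrays and -1.27, 0.17 and 1.05 on the BPH+ghrelin arrays. They were thus low on sham replicate 1 and BPH+ghrelin replicate 1, and overlapped between the groups.

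The median deviation of the members was -0.073, 0.33 and 0.12 on the sham arrays, 0.29, 0.10 and -0.0057 on the BPH arrays and -0.25, -0.30 and -0.25 on the BPH+ghrelin arrays. For endothelial genes, it was 0.15 to 0.31 on the sham arrays, 0.080 to 0.42 on the BPH arrays and -0.31 to -0.21 on the BPH+ghrelin arrays. For lymphocyte genes, it was 0.058 to 0.33, -0.10 to 0.24 and -0.23 to -0.077, respectively. The lymphocyte markers Cd3e, Cd5, Cd8a, Cd79a, Cd79b, Ms4a1 and Ncr1 were not above background on at least 3 of 9 arrays. For smooth muscle genes, it was -0.40 to 0.41, -0.16 to 0.67 and -0.50 to -0.17. The median deviations of the BPH+ghrelin arrays were therefore below 0 for members and for these lists. They lay below all other arrays for members and endothelial genes, while lymphocyte genes overlapped with BPH and smooth muscle genes with sham. The part of other cell types in the differences of the members was not tested.

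**Figure D4:**
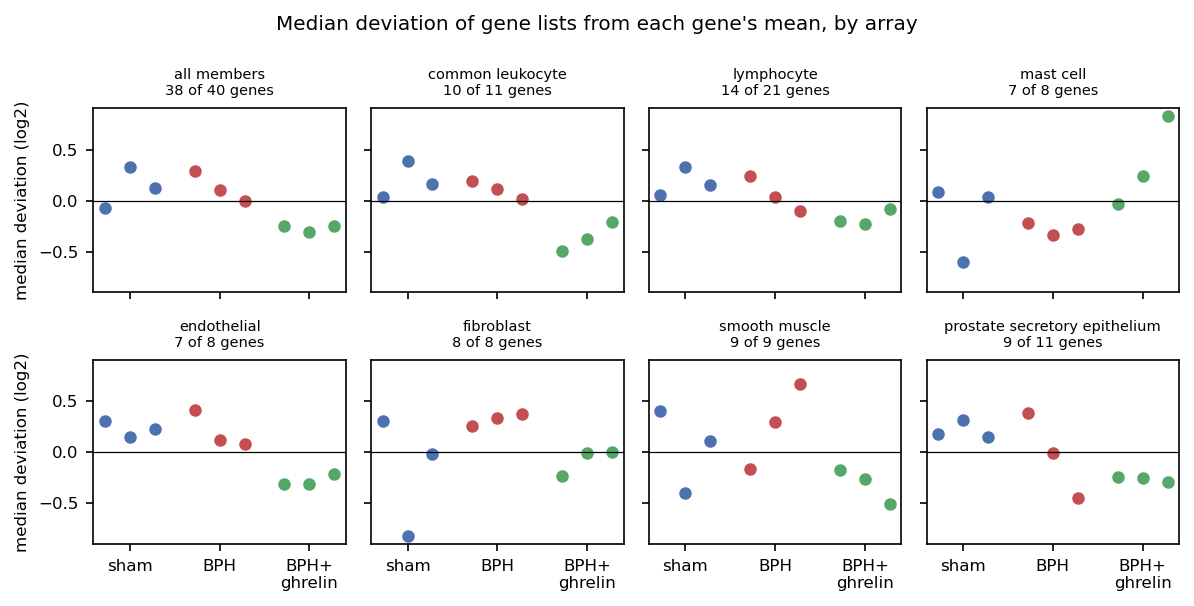
Median deviation of gene lists, as log2 signal minus the mean of each gene over 9 arrays, with 1 point per array in the order of replicates 1 to 3. The members lie between -0.30 and -0.25 on the BPH+ghrelin arrays, where common leukocyte, lymphocyte and endothelial genes are below 0 as well and 2 of 3 points of mast cell genes are above 0.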

How the data were processed

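Total RNA of rat prostates had been labelled with Cy3 and hybridised to Agilent one-colour arrays, 3 per group, and groups were taken from the sample labels. The authors deposited, for each array, the scanner's intensity after background subtraction (processed signal, linear, not normalised between arrays), its flags for outlier and dim spots, and a table of log2 values that they had quantile normalised with GeneSpring. The deposited log2 table was used as an alternative. Here, outlier spots were removed, log2 intensities of the spots of a probe were averaged, and 30356 probes were quantile normalised over 9 arrays (11 probes without a spot on some array were dropped). Accessions of 17998 probes matched 15163 symbols of the RefSeq table of GRCr8. Probes entered a comparison of 6 arrays if at least 3 of these had them well above background, and the brightest such probe stood for its gene. Groups were compared in R 4.3.3 with limma 3.58.1 (lmFit, eBayes, 1 fit of 9 arrays), with adjustment by Benjamini-Hochberg over all genes tested, and members with an adjusted p under 0.05 were called. The fit was also run on simulated arrays, which were drawn independently and without a slide effect, so that this run does not cover dependence between arrays. With 3 arrays per group, the smallest p of an exact two-sided permutation test is 0.1, and the number of arrays limits the precision. Promoter sequences were taken from RefSeq.

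Members and lists were chosen with earlier results of these data known. Full values are given for members called in any comparison, filled up to 5 per comparison by the lowest p, and for genes of the wider list that were called without overlap, up to 3 per comparison and direction. S100a8, S100a9, Csf1r, Tlr2, Ctsh, Coro1a and Fgr over all arrays were described in addition, after their values had been seen. For 1 called gene of the wider list, values are not reported here. Alternatives were scaling to the 75th percentile, normexp (offset 50, on median signals), other filters, the 6 arrays compared only, the mean of the probes, replicate number or slide as a block, the deposited table, eBayes with trend and robust, and each array left out. The methods give 3 rats per group for the arrays, while the labels name no rat.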

Additional observations from a re-analysis of the deposited data

How the results depend on the processing

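The direction of the medians was kept except in BPH against sham, and the counts of members called changed in many settings, while the cause was not tested. In BPH against sham, where 3 members were called higher and 0 lower, the count of higher calls was 1 without a filter on dim probes, 0 with the 6 arrays compared only, 1 with the replicate block, 0 with slide as a fixed and 11 with slide as a random block, 0 to 4 when 1 array was left out, 0 without the 3 arrays that lie between (chosen after seeing the data) and 10 by unadjusted p. The count of lower calls was 5 with slide as a random block, 0 to 3 when 1 array was left out, 4 by unadjusted p and 2 by fold alone, and the median was -0.18 to 0.051 when 1 array was left out, with the reversed value of 0.051 without sham replicate 2. Over all 19552 genes, 422 were called higher and 427 lower in this comparison, and 3802 and 3282 with slide as a random block. Higher calls over all genes were 39 with the 6 arrays only, 53 with the replicate block and 1 with slide as a fixed block. In BPH+ghrelin against BPH, where 5 members were called lower and 0 higher, the count of lower calls was 11 with the 6 arrays compared only, 1 with the replicate block (Cybb), 0 with slide as a fixed and 10 with slide as a random block, 0 to 6 when 1 array was left out, 0 without the 3 arrays that lie between and 15 by unadjusted p, and the median was -0.21 with normexp. Over all genes, 195 were called lower in this comparison, 1210 with the 6 arrays only, 12 with the replicate block, 1 with slide as a fixed and 953 with slide as a random block, so that counts of members moved with those of all genes. In BPH+ghrelin against sham, where 1 member was called higher and 2 lower, the count of higher calls was 0 with scaling to the 75th percentile, without a filter, with the 6 arrays only, with the replicate block, with slide as a fixed block, without the 3 arrays between and by fold alone, and 0 to 2 when 1 array was left out. The count of lower calls was 6 with scaling to the 75th percentile, 5 with normexp, 1 without a filter, with the 6 arrays only or with the mean of the probes, 0 with the replicate block, slide as a fixed block or without the 3 arrays between, 0 to 9 when 1 array was left out and 17 by unadjusted p, and the median was -0.24 with normexp. Over all 19197 genes, 633 were called lower, 795 with scaling, 584 with normexp, 321 with the replicate block and 69 with slide as a fixed block. Single members were refitted in the comparisons where they were called or among the 5 lowest p. Their differences kept their direction in all 267 refits. They stayed on their side of the threshold in 163, while a call was lost in 95 and gained in 9. These members were picked from the same data and the refits share most arrays, so that the kept direction was largely set in advance. In BPH+ghrelin against sham, where Hmox1 was not among them, its sign changed in 5 of 18 settings. Replicate numbers are no pairing in the labels, and deviations of arrays with the same number correlated with -0.13 to 0.25, so that the block shares a number only. Scaling to the 75th percentile moved the median of all genes in BPH against sham from 0.039 to -0.061. With 3 arrays per group and dim probes such as Msr1 and Clec7a, the size of differences is limited by the signal over background.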
